A study of Mus musculus with 30 samples.

Results

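The telomerase ribonucleoprotein (RNP) was followed through 10 genes, chosen by name from the 50686 genes of the count files: the template RNA Terc, the reverse transcriptase Tert, the H/ACA proteins Dkc1, Nop10, Nhp2 and Gar1, the assembly and trafficking factors Naf1 and Wrap53, the RNA-trimming deadenylase Parn and the telomerase-associated protein Tep1. Each was found by its Ensembl identifier, and the choice was made with earlier results of these data known. RNA had been counted in 30 libraries of osteoclasts, the multinucleated bone-resorbing cells of the macrophage lineage, with 3 libraries in each of 10 groups. Macrophages derived from the bone marrow of C57BL/6J mice gave rise to the cells, and the mice were either wild type (WT) or Terc-/- (here KO), which lack the telomerase RNA. The study's question was how age and the absence of Terc bear on the RNA of osteoclasts.

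All cultures received M-CSF (25 ng/ml) and RANKL (100 ng/ml), which turn macrophages into osteoclasts, and 10% serum. Multinucleated cultures, which were kept until large multinucleated cells were seen, came from WT donors of 1, 6 and 20 months and KO donors of 1 and 6 months. Cultures stopped after 2 days came from WT donors of 6 and 20 months. A further 3 groups were multinucleated cultures whose titles carry an added tag that the labels do not explain. They were KO of 1 month and KO of 6 months with the number 519 (set 519), and WT of 1 month with a tag beginning with D1 (set D1), and they were kept apart. No WT library belonged to set 519 and no KO library to set D1, so in contrasts across sets the set and the genotype cannot be told apart. Whether replicates were separate animals or cultures is not stated, and neither is the generation of the KO mice. A p-value therefore speaks to the spread of the samples at hand, possibly technical, and to nothing wider.

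In telomerase, Tert copies a short template within Terc onto chromosome ends. Terc ends in an H/ACA domain, a fold shared with the small nucleolar RNAs that guide pseudouridylation, and binds dyskerin (Dkc1), Nop10 and Nhp2 together with Gar1. Naf1 holds the place of Gar1 during assembly, Wrap53 (TCAB1) brings the particle to Cajal bodies, and Parn removes adenosine tails from the 3′ end of the RNA. The same H/ACA proteins act in ribosome production in every growing cell, Parn also trims other RNAs, and Tep1 is also a protein of the vault particle.

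The 2 ends of the annotated Terc transcript show what the KO removes and where the H/ACA proteins act. Terc lies on chromosome 3, 96414437-96414859 (GRCm38, minus strand), and is annotated with 423 bases. In its bases 1 to 60 the capitals mark positions 28 to 36, the longest stretch that pairs with the telomere repeat. In the last bases, 364 to 423, the capitals mark the ACA box, which stands 3 bases before the 3′ end. Both are from the GENCODE transcripts of GRCm38, and the ends of the mature RNA were not examined.
Terc, 5′ end: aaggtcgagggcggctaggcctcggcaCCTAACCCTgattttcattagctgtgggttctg
Terc, 3′ end: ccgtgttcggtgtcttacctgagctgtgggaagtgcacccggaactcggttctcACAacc

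Of the 4 H/ACA proteins, Dkc1, Gar1 and Nhp2 moved together across the groups and Nop10 did not, as the values below show, and their promoters are given for that reason. Each runs from 250 bases before to 50 bases after the RefSeq start (GRCm38.p6), and capitals mark matches on either strand to 3 motifs chosen after the sequences were seen. These were the E-box bound by MYC (CACGTG), the GC box (GGGCGG) and an ETS-type motif (CCGGAAG), which do not overlap each other in these windows. RefSeq entries were matched for 7 of the 10 members.
Dkc1, chrX:75095604-75095903, plus strand: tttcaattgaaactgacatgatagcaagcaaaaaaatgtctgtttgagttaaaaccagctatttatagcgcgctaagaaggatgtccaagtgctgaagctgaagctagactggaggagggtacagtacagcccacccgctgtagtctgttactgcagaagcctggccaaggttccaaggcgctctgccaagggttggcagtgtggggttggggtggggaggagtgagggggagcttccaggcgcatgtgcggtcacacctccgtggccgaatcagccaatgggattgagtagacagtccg
Gar1, chr3:129831347-129831646, minus strand: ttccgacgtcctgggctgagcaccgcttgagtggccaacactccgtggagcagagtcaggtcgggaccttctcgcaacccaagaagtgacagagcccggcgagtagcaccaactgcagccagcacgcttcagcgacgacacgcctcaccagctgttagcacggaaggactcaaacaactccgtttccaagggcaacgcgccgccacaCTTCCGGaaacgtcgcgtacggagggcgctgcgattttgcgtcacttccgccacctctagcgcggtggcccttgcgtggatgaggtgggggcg
Nhp2, chr11:51619523-51619822, plus strand: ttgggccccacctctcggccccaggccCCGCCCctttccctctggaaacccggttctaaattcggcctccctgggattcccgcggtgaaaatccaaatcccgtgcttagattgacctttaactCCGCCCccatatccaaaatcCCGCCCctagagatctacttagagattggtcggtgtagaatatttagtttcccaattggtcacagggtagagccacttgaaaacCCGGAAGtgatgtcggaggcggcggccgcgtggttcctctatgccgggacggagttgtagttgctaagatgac
Nop10, chr2:112261676-112261975, plus strand: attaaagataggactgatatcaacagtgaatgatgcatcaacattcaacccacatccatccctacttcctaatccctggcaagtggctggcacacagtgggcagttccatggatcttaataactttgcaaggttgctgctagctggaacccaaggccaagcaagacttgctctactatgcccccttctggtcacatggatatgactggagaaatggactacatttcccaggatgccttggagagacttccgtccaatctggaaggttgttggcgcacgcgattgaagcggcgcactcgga

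Counted from the RefSeq start as position 0, Gar1 held an ETS-type match at -43, and Nhp2 held an ETS-type match at -23 and 3 GC boxes, the first at -223. No match was found in the windows of Dkc1 and Nop10. Among the other members with an entry, Tert held 2 GC boxes, Parn a GC box at -33 and an ETS-type match at 19, and Wrap53 an E-box at -124 in 1 of its 2 entries. Of all 32851 windows of the same length, 35.66% held a GC box, 8.858% the ETS-type motif and 7.15% the E-box. A match describes the letters of a window and no binding.

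Total counts ran from 4269798 to 12987993 in set 519 and from 13182063 to 25147975 in the other 24 libraries. Levels below are CPM, counts scaled to a library of 1000000, after TMM scaling, as mean ± SD over 3 libraries of a group, unless another scale is named. Summed levels of gene lists are in CPM of the library total, without TMM scaling. The osteoclast label was checked against 10 markers of osteoclasts, from Acp5 and Ctsk to the calcitonin receptor Calcr, and none was at 0 in any group. Their summed level ran from 575 to 615 CPM in 1-month KO and from 42780 to 44790 CPM in set D1. It was 2118 to 2258 CPM in 1-month WT and 2265 to 2547 CPM in 6-month KO, below the 3688 to 5062 CPM of 2-day WT, and 21250 to 25880 CPM in multinucleated WT of 6 and 20 months. In set 519 it was 6957 to 7824 CPM at 1 month and 25220 to 26240 CPM at 6 months. The groups therefore differ in how far the culture shows osteoclast genes as well as in genotype and age. The summed level of 10 macrophage markers was 43160 to 44530 CPM in 1-month KO and 27380 to 28930 CPM in 1-month WT. It was 10120 to 11920 CPM in WT of 6 and 20 months at either stage. The libraries of set D1 had the female pattern, with Xist at 851 ± 49.6 CPM of the library total, and at most 0.454 CPM elsewhere. In contrasts with set D1, sex and set cannot be told apart, and Dkc1 is X-linked. The Y-linked gene Eif2s3y stood at 18.6 and 17.3 CPM of the library total in untagged and set 519 KO of 1 month. It was 68.2 CPM in untagged 1-month WT, and 63.6 and 65.4 CPM in these KO sets at 6 months. Y-linked Ddx3y, Kdm5d and Uty stood at 61.9, 20.6 and 17.4 CPM in untagged 1-month KO and at 64.6, 27.5 and 19.5 CPM in untagged 1-month WT. The reason was not tested.

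Terc (ENSMUSG00000064796) could not be told from its detection limit. Terc had a total of 5 counts over the 18 WT libraries, 2 in 2-day WT of 20 months (replicate 1), 1 in multinucleated WT of 20 months (replicate 2) and 2 in set D1 (replicate 2). That is 0.0150 CPM of the library totals, with an exact 95% Poisson interval of 0.00488 to 0.0351 CPM. The 12 KO libraries held 0 counts, which allows up to 0.0162 CPM, taking 3 counts as the limit for a count of 0. The loss of Terc in KO was thus not detectable at this depth in RNA selected with oligo(dT), and the genotype rests on the labels. Such limits and intervals cover counting error only.

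Tert (ENSMUSG00000021611, chromosome 13, 73627001-73649041, plus strand) was counted in 28 of the 30 libraries, but with at most 14 counts. In 2-day WT it had 8, 10 and 14 counts at 6 months and 7, 10 and 6 counts at 20 months. Multinucleated WT had 11, 5 and 4 counts at 1 month, 6, 9 and 2 at 6 months, 7, 7 and 9 at 20 months and 5, 4 and 8 in set D1. In KO the counts were 6, 3 and 9 at 1 month and 4, 6 and 7 at 6 months, and in set 519 they were 2, 7 and 0 at 1 month and 0, 1 and 1 at 6 months. Most pairs of groups overlapped. Each library of set 519 at 6 months, at most 0.173 CPM, lay below each library of untagged KO, set D1, 20-month WT and 2-day WT. Each library of 6-month 2-day WT, at least 0.451 CPM, lay above each library of untagged KO, set D1 and multinucleated 20-month WT. In set 519 at 6 months the limits for a count of 0 were 0.258, 0.4945 and 0.245 CPM of the library total. Untagged 6-month KO held 0.181, 0.254 and 0.298 CPM of the library total, so the gap to that group lay near the limits. The 2 libraries at 0 belonged to set 519, whose limits for a count of 0 ran up to 0.703 CPM.

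Summed over libraries, Tert stood at 0.556 CPM of the library totals in 2-day WT (95% Poisson interval 0.419 to 0.724), 0.330 CPM in multinucleated WT (0.260 to 0.412) and 0.248 CPM in KO (0.182 to 0.331). Tert passed the filter on low counts only through 2-day WT libraries, at 0.6085, 0.759 and 0.611 CPM of the library total. Its level in the cultures where it stood highest thus decided that it was tested. No comparison called Tert. Its lowest adjusted p was 0.070, in set 519 KO against 6-month WT (log2 fold change -1.99 ± 0.92 SE). Without replicate 4 of 6-month WT, which had 2 counts, that contrast passed the threshold (-2.44, adjusted p = 0.023), and so did set 519 KO of 6 against 1 month without replicate 4 of the 1-month group, which had 0 counts (-2.58, adjusted p = 0.043). With so few counts, differences between groups of less than about the interval of each contrast, -0.99 to 1.08 for KO against WT at 1 month, were not detectable.

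**Figure D1:**
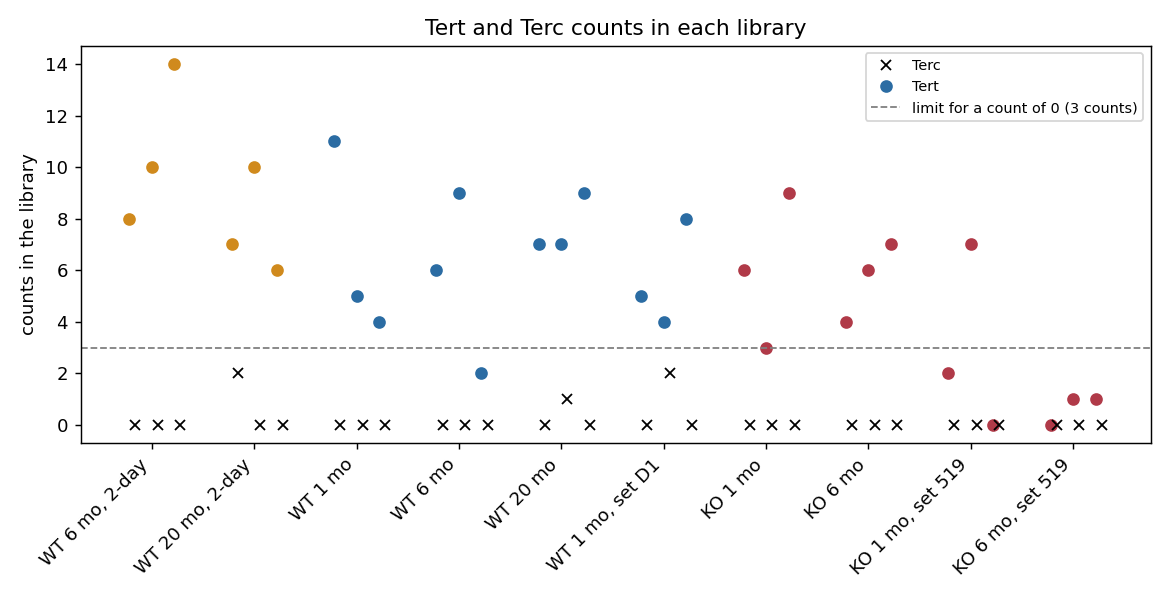
Counts of Tert (circles, coloured by group: 2-day WT orange, multinucleated WT blue, KO red) and Terc (crosses) in each of the 30 libraries. The horizontal axis gives the group, the vertical axis the count in the library, and the dashed line the 3 counts that a count of 0 allows. Terc reaches at most 2 counts, and Tert lies between 0 and 14.

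Per kilobase of exon, the scale on which genes can be compared, the median over groups placed Nhp2 highest at 87.2 CPM per kb. Nop10 followed at 41.2, Tep1 at 21.1, Dkc1 at 18.3, Gar1 at 13.4 and Parn at 8.74 CPM per kb. Wrap53 stood at 4.21 and Naf1 at 3.20 CPM per kb, and Tert at 0.0909 CPM per kb. The protein partners of the RNA were therefore counted well, and the reverse transcriptase was the scarce protein member.

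The members also differed in how far they ranged between groups. Dkc1 varied most, 4.57-fold between its highest group mean (130.5 ± 4.38 CPM in 6-month 2-day WT) and its lowest (28.5 ± 1.03 CPM in set D1). Gar1 varied 3.98-fold and Nhp2 2.88-fold, also with their lowest means in set D1. Wrap53 varied 2.25-fold, Naf1 2.10-fold, Parn 1.66-fold and Tep1 1.59-fold. Nop10 varied least, 1.44-fold, from 52.8 ± 3.51 CPM in 6-month WT to 36.8 ± 3.65 CPM in 1-month KO of set 519, and in its order of group means the libraries of every neighbouring pair of groups overlapped. For Dkc1, neighbours in the order overlapped only between both 2-day groups, between WT of 1 and 6 months, and between 1-month KO of set 519 and set D1.

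The comparison of multinucleated with 2-day WT cultures asked how the members change as osteoclasts mature. The H/ACA proteins Dkc1, Gar1 and Nhp2 fell at both ages, by 1.37-fold to 1.77-fold, Tep1 rose, and Parn was not called. At 6 months 4 of the 9 members tested fell, against 27.4% of all 15310 genes, and 1 rose, against 23.4%. At 20 months 5 fell (26.9% of all genes) and 2 rose (25.4%). Calls are Benjamini-Hochberg adjusted p under 0.05 in edgeR's quasi-likelihood test over 15310 genes, and fold changes are followed by log2 values ± SE. Where libraries of compared groups are said not to overlap, the share of all genes without overlap was not counted.

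Dkc1 (ENSMUSG00000031403, chromosome X, 75095854-75109777, plus strand), the pseudouridine synthase of the complex, stood at 128, 128 and 135.5 CPM in 2-day WT of 6 months and at 92.4, 91.35 and 94.8 CPM in the multinucleated cultures. At 20 months the values were 122.5, 129 and 131 CPM against 69.9, 72.8 and 73.4 CPM. Every multinucleated library lay below every 2-day library at both ages. The fall was 1.41-fold at 6 months (-0.49 ± 0.06, adjusted p = 6.3e-09) and 1.77-fold at 20 months (-0.82 ± 0.06, adjusted p = 5.6e-14). The difference between these falls was itself called, -0.33 ± 0.08 (adjusted p = 0.0048), as the 1 member so called where 4.86% of all genes were called in that direction and 7.50% in the other. Without replicate 1 of either 2-day group, Naf1 was called too (-0.53, adjusted p = 0.029, and -0.51, adjusted p = 0.038), and with only the groups concerned fitted (-0.43, adjusted p = 0.048).

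Gar1 (ENSMUSG00000028010, chromosome 3, 129824912-129831396, minus strand), which replaces Naf1 in the mature particle, fell from 35.0, 34.7 and 35.5 CPM to 21.2, 25.25 and 25.9 CPM at 6 months (-0.54 ± 0.10). At 20 months it fell from 32.4, 42.55 and 35.4 CPM to 22.5, 21.75 and 21.3 CPM (-0.75 ± 0.10). Nhp2 (ENSMUSG00000001056, chromosome 11, 51619735-51623714, plus strand), an RNA-binding core protein, fell from 148, 151 and 142 CPM to 106, 114 and 103 CPM (-0.45 ± 0.08) and from 117.5, 123 and 128 CPM to 82.5, 85.6 and 83.5 CPM (-0.55 ± 0.09). No multinucleated library reached a 2-day library of the same age for either gene. Wrap53 fell 1.40-fold at 6 months and 1.26-fold at 20 months (adjusted p = 0.024). The latter call was lost without replicate 1 or 2 of the 2-day group (0.058 and 0.075) and without replicate 1, 2 or 4 of the multinucleated group (0.051, 0.056 and 0.053), without the filter (0.096) and with the replicate block (0.055). Naf1 fell 1.58-fold at 20 months (-0.66 ± 0.11) and was not called at 6 months (-0.24, interval -0.46 to -0.03, adjusted p = 0.068), but passed the threshold without replicate 2 of the 2-day group (-0.31, adjusted p = 0.033), with RLE scaling (0.047) and with library totals (0.025).

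Tep1 (ENSMUSG00000006281, chromosome 14, 50824062-50870560, minus strand) rose from 129, 133 and 134 CPM to 155.5, 161 and 158 CPM at 6 months (0.26 ± 0.06) and from 139.9, 133 and 136.5 CPM to 165, 162 and 158 CPM at 20 months (0.24 ± 0.06). Its groups did not overlap at either age. Nop10 (ENSMUSG00000027133, chromosome 2, 112261926-112263269, plus strand), the smallest core protein, rose at 20 months (0.29 ± 0.09, adjusted p = 0.0083), with overlapping libraries, and lost the call without replicate 1 of the 2-day group (0.090) or replicate 2 of the multinucleated group (0.057). At 6 months it was not called (0.20, adjusted p = 0.057), but passed the threshold without replicate 3 of the multinucleated group (0.25, adjusted p = 0.042), in the fit without sets 519 and D1 (0.23, adjusted p = 0.044), without the filter (0.017) and with only both groups fitted (0.0027). The 21 cell cycle genes fell beside these members, 21 of 21 at each age, and their summed level went from 4557 to 4826 CPM in 2-day cultures to 2169 to 2687 CPM in multinucleated ones. The summed level of 10 stromal markers, from collagens to Acta2, went from 6114 to 6325 CPM down to 1539 to 1986 CPM at 6 months (8 of 10 lower, 1 higher) and from 4263 to 4503 CPM down to 3034 to 3491 CPM at 20 months (5 lower, 2 higher). The part of cell cycle and stromal RNA in the changes of the members was not tested. In bulk RNA, fewer cells that express a gene and less of its RNA per cell cannot be told apart.

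**Figure D2:**
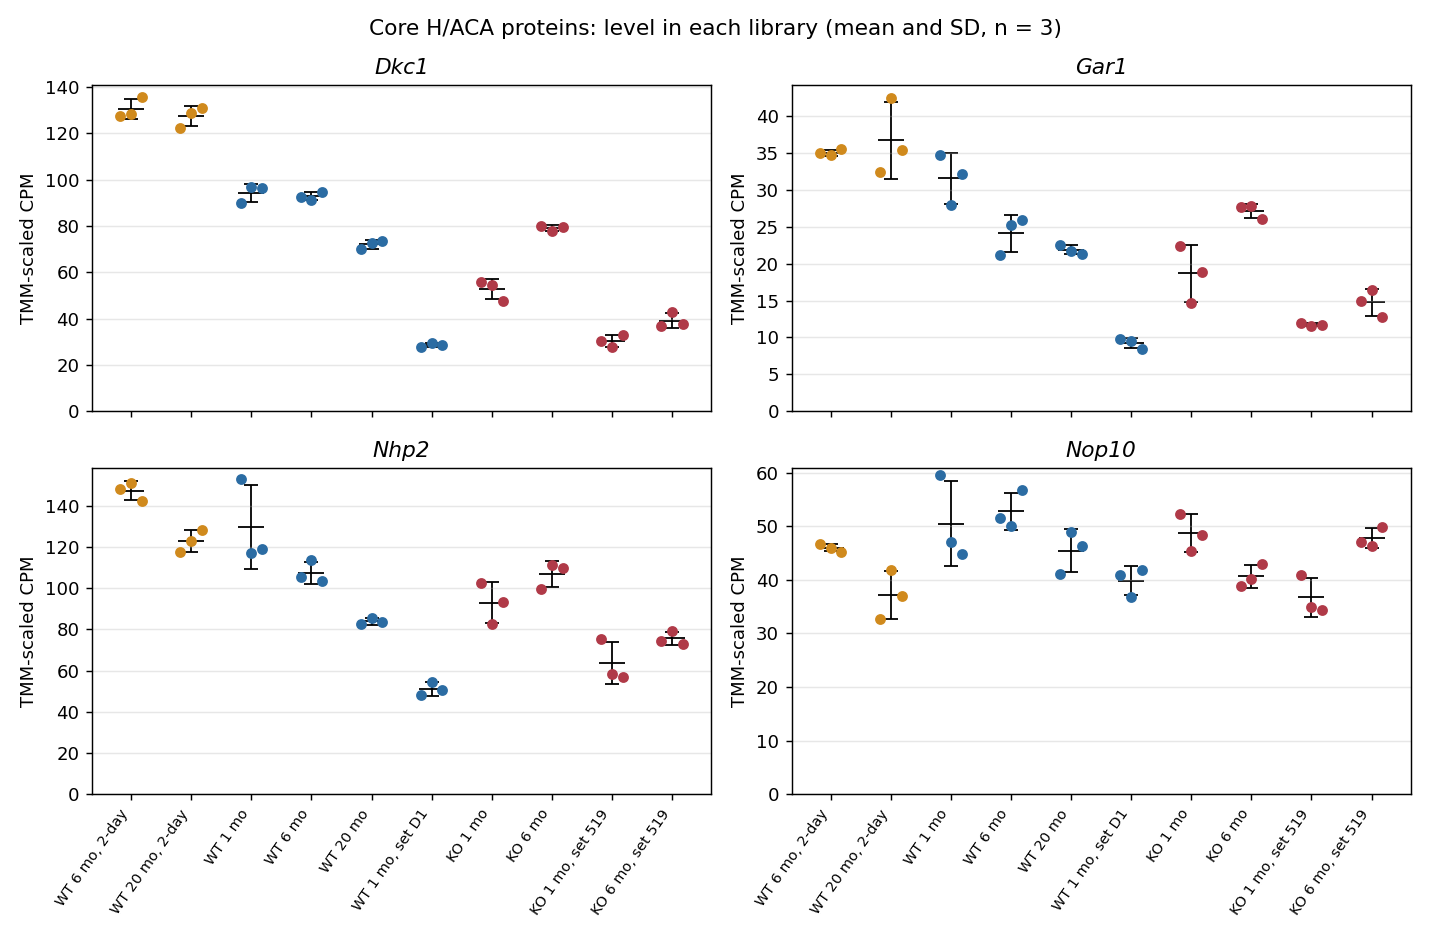
Level of Dkc1, Gar1, Nhp2 and Nop10 in each library (points) with the mean and SD of the 3 libraries of a group (bars). The vertical axis is TMM-scaled CPM from 0, and colours separate 2-day WT (orange), multinucleated WT (blue) and KO (red). Dkc1, Gar1 and Nhp2 are lowest in set D1 and Dkc1 is highest at 2 days, while group means of Nop10 stay between 36.8 and 52.8 CPM.

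Among multinucleated WT cultures the step from 6 to 20 months touched few genes, and Dkc1 and Nhp2 were among those that fell. Both fell by about the same size, Dkc1 from 92.4, 91.35 and 94.8 to 69.9, 72.8 and 73.4 CPM (1.29-fold, -0.37 ± 0.06, adjusted p = 2.6e-05) and Nhp2 from 106, 114 and 103 to 82.5, 85.6 and 83.5 CPM (1.28-fold, -0.36 ± 0.08, adjusted p = 0.0031). No 20-month library reached a 6-month library for either gene. These were 2 of the 9 members, where 6.90% of all genes fell, and no member rose, where 7.39% did. Gar1, at 24.1 ± 2.54 and 21.9 ± 0.613 CPM, was not called (-0.15, interval -0.36 to 0.06). The cell cycle list fell in 15 of its 21 genes, and its sum went from 2554 to 2687 CPM at 6 months to 2169 to 2403 CPM at 20 months. The osteoclast markers held 1 gene up and 1 down of 10 at this step, while 7 of 10 stromal markers rose and 1 fell, from a sum of 1539 to 1986 CPM to one of 3034 to 3491 CPM. Their part in the fall of Dkc1 and Nhp2 was not tested. Nop10 was called lower when only both groups were fitted (-0.21, adjusted p = 0.020).

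From 1 to 6 months, Gar1, Nhp2, Wrap53 and Tep1 fell and Parn rose in multinucleated WT, 4 members lower against 32.5% of all genes and 1 higher against 31.2%. Dkc1 was not called, at 89.7, 96.75 and 96.3 CPM at 1 month and 92.4, 91.35 and 94.8 CPM at 6 months (-0.02, interval -0.13 to 0.09). Wrap53 (ENSMUSG00000041346, chromosome 11, 69561758-69580255, minus strand) fell 1.70-fold (-0.77 ± 0.12), from 12.0, 11.5 and 10.4 CPM to 6.94, 7.385 and 5.66 CPM, and was lower by 1.78-fold at 20 months than at 1 month. Parn rose 1.24-fold (0.30 ± 0.08), from 25.5, 24.75 and 25.1 CPM to 31.2, 30.7 and 31.1 CPM, without overlap.

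Replicate 1 of 1-month WT stood apart from the other two in Nhp2 (153 against 117 and 119 CPM), Nop10 (59.5 against 47.0 and 44.9 CPM) and Tep1 (162 against 192.4 and 192.4 CPM). Without it the call of Nhp2 was lost (-0.14, adjusted p = 0.13) and Nop10 passed the threshold (0.20, adjusted p = 0.039). With library totals in place of TMM, Nhp2 (-0.17, adjusted p = 0.056) and Tep1 (-0.11, adjusted p = 0.16) were not called. The osteoclast marker list was higher at 6 months in 10 of 10 genes and the cell cycle list lower in 20 of 21. Of the stromal markers 9 of 10 were higher and none lower (602 to 663 CPM at 1 month, 1539 to 1986 CPM at 6 months), and of the macrophage markers 7 of 10 were lower and 1 higher. Their part in these changes was not tested. Between 1 and 20 months 5 members fell (34.4% of all genes) and Parn rose (34.2%), by 1.26-fold. Tep1 was among those that fell (-0.17 ± 0.06), with overlapping libraries, and lost its call with library totals in place of TMM (-0.05, adjusted p = 0.54), without replicate 4 of 1-month WT (-0.14, adjusted p = 0.071) and with only both groups fitted (-0.16, adjusted p = 0.066). Nop10 was called lower without replicate 3 (-0.22, adjusted p = 0.050) or 4 (-0.23, adjusted p = 0.029) of 1-month WT.

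In 2-day WT cultures, age was tied to 2 members. Nhp2 went from 148, 151 and 142 CPM at 6 months to 117.5, 123 and 128 CPM at 20 months (-0.26 ± 0.08, adjusted p = 0.026). Nop10 went from 46.6, 46.0 and 45.3 to 32.7, 41.8 and 36.9 CPM (-0.30 ± 0.09, adjusted p = 0.017). Groups did not overlap, and 11.3% of all genes fell. No member rose, where 7.50% of all genes did. Both calls were lost without replicate 2 of the 6-month group (adjusted p = 0.12 for Nhp2 and 0.071 for Nop10). Leaving out replicate 1 of the 6-month group or replicate 1 of the 20-month group also ended both (0.073 and 0.14 for Nhp2, 0.060 and 0.18 for Nop10), while Naf1 was then called (log2 fold change 0.41 and 0.39), as it was with RLE scaling (adjusted p = 0.048), library totals (0.027) and only both groups fitted (0.042). Nhp2 was also lost without replicate 2 (0.077) and Nop10 without replicate 3 (0.071) of the 20-month group.

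KO and WT of 1 month were set against each other to see what accompanies the loss of Terc in osteoclasts of young mice. Dkc1, Gar1, Nhp2, Parn and Naf1 were lower in KO, 5 of the 9 members tested, where 20.8% of all genes were lower. None was higher, where 20.7% of all genes were. Dkc1 fell from 89.7, 96.75 and 96.3 CPM in WT to 55.9, 54.3 and 47.6 CPM in KO (1.79-fold, -0.84 ± 0.06, adjusted p = 1.6e-13). Gar1 fell from 34.7, 27.9 and 32.2 CPM to 22.5, 14.7 and 18.9 CPM (1.68-fold, -0.75 ± 0.10, adjusted p = 5.6e-07). Nhp2 fell from 153, 117 and 119 to 103, 82.6 and 93.4 CPM (1.39-fold, -0.48 ± 0.08). For these 3 no KO library reached a WT library, a gap that was not counted over all genes.

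Nop10, the remaining core protein, stood at 52.4, 45.3 and 48.4 CPM in KO and 59.5, 47.0 and 44.9 CPM in WT, with overlap and no call (-0.05, interval -0.22 to 0.12). Naf1 (ENSMUSG00000014907, chromosome 8, 66860217-66890564, plus strand), which binds dyskerin in place of Gar1 early in assembly, had 9.77, 7.95 and 7.54 CPM in KO and 10.2, 10.3 and 11.2 CPM in WT (-0.33 ± 0.12, adjusted p = 0.022). Its call was lost without replicate 2 (0.076) or 4 (0.15) of KO or replicate 4 of WT (0.091), without the filter on low counts (0.059) and when only both groups were fitted (0.063). Wrap53 (-0.24, interval -0.45 to -0.02) and Tep1 (0.11, interval -0.01 to 0.23) were not called, but without replicate 1 of KO both passed the threshold (adjusted p = 0.043 and 0.023), as did Wrap53 with library totals (0.015). Beside these, all 10 osteoclast markers were lower in KO, 19 of 21 cell cycle genes were lower (summed level 2401 to 2552 CPM in KO and 3552 to 3810 CPM in WT), 9 of 10 macrophage markers were higher and 6 of 10 stromal markers were higher. Their part in the members' differences was not tested.

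At 6 months the KO difference had another shape. Wrap53 and Tep1 were higher (2 of 9 members, 30.5% of all genes), and Dkc1, Nop10 and Parn lower (3 of 9, 29.5% of all genes). Dkc1 was lower by 1.17-fold only, at 79.9, 77.8 and 79.6 CPM against 92.4, 91.35 and 94.8 CPM (-0.23 ± 0.06, adjusted p = 0.00082), with no overlap. Gar1, at 27.65, 27.8 and 26.0 CPM in KO and 21.2, 25.25 and 25.9 CPM in WT, was not called although its libraries did not overlap (0.17, interval -0.04 to 0.37), and neither was Nhp2 (-0.01, interval -0.17 to 0.16). Nop10 was lower in KO, 38.9, 40.1 and 43.0 CPM against 51.5, 50.02 and 56.7 CPM (1.30-fold, -0.38 ± 0.09). Wrap53 was 1.57-fold higher (0.65 ± 0.12), at 9.43, 10.9 and 10.9 CPM against 6.94, 7.385 and 5.66 CPM. No library of one group reached the other for the 5 members called, a gap that was not counted over all genes. All 10 osteoclast markers were lower in KO here too, but 18 of 21 cell cycle genes were higher (3101 to 3146 CPM in KO, 2554 to 2687 CPM in WT). Of the macrophage markers 9 of 10 were higher and 1 lower (summed 26570 to 27020 CPM in KO, 11700 to 11920 CPM in WT), and of the stromal markers 7 of 10 were lower and none higher (995.5 to 1074 CPM in KO, 1539 to 1986 CPM in WT). The part of these in the calls was not tested.

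The change of the KO difference with age was tested directly, as the log2 fold change at 6 months minus that at 1 month. It was positive for Gar1 (0.91 ± 0.15, adjusted p = 4.2e-06), Wrap53 (0.88 ± 0.16), Dkc1 (0.61 ± 0.08), Nhp2 (0.47 ± 0.12) and Tep1 (0.25 ± 0.09), 5 of 9 members where 27.1% of all genes were called higher, and negative for Nop10 (-0.33 ± 0.12, adjusted p = 0.027), 1 of 9 where 21.6% were called lower. For Parn it was not called (-0.04, interval -0.26 to 0.17), nor for Naf1 (0.17, interval -0.15 to 0.48). The calls of Tep1 and Nop10 were lost when single libraries were left out. For Tep1 these were replicate 1 of 1-month KO (adjusted p = 0.057) and replicate 4 of 1-month WT (0.051), and fitting only the groups concerned also ended the call (0.075). For Nop10 they were replicate 1 of 1-month KO (0.093), replicates 3 and 4 of 1-month WT (0.092 and 0.11), replicate 4 of 6-month WT (0.096) and replicates 1 and 2 of 6-month KO (0.068 and 0.056). The cell cycle list moved the same way in 21 of 21 genes.

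Within KO, from 1 to 6 months, Dkc1 rose 1.504-fold (0.59 ± 0.06), Gar1 1.44-fold (0.53 ± 0.11) and Parn 1.20-fold, 3 members higher against 19.7% of all genes, and Nop10 fell (17.8% of all genes were lower). Dkc1 had no overlapping library between the ages. The call of Parn, with overlapping libraries, was lost without replicate 4 of 1-month KO (adjusted p = 0.12) or replicate 1 of 6-month KO (0.10), and that of Nop10 without replicate 1 of 1-month KO (0.095) or replicates 1 or 2 of 6-month KO (0.077 and 0.055). Fitting only both groups also ended the call of Parn (0.077), and library totals that of Nop10 (0.12). Nhp2 was not called (0.20, adjusted p = 0.060) but passed without replicate 1 of either group (0.020 and 0.040), with library totals (0.0021) and without the filter (0.032). In set 519, Dkc1 rose too, from 30.5, 27.55 and 32.9 to 37.0, 42.7 and 37.6 CPM (1.30-fold, 0.38 ± 0.08), and Nop10 rose from 41.0, 35.0 and 34.3 to 47.1, 46.3 and 49.9 CPM (1.31-fold, 0.38 ± 0.11), 2 members higher against 19.2% of all genes and none lower against 13.2%. Without replicate 2 of the 1-month group Nhp2 was called as well (0.38, adjusted p = 0.0038), and also without the filter (0.038) and with the replicate block (0.047). Nop10 thus fell with age in one KO set and rose in the other, and the difference between these changes was called (0.65 ± 0.14, adjusted p = 0.0010), the 1 member higher where 9.09% of all genes were. None was called lower, where 5.79% of all genes were. Parn passed that test without replicate 3 of 6-month KO (-0.38, adjusted p = 0.038) and with library totals (-0.46, adjusted p = 0.011), which also called Dkc1 (-0.36, adjusted p = 0.0090) and Wrap53 (-0.55, adjusted p = 0.030).

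**Figure D3:**
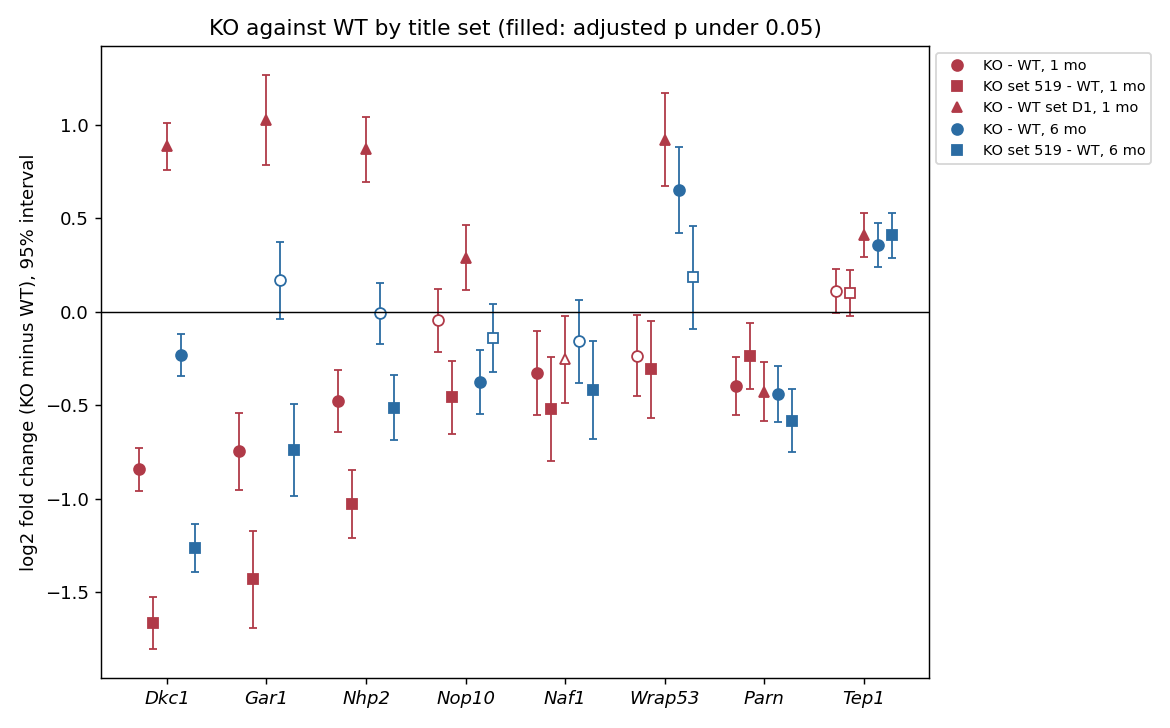
KO against WT for 8 members in 5 of the 6 contrasts between KO and WT sets. The vertical axis is the log2 fold change, KO minus WT, with its 95% interval (bars), and the horizontal axis the member. Red symbols are 1 month, blue symbols 6 months, and filled symbols passed the threshold. Dkc1 lies at -1.66 to -0.23 against untagged WT and at 0.88 against set D1, while Parn lies below 0 in each contrast.

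The direction for the H/ACA proteins depended on the set used as control. Against untagged 1-month WT, KO of set 519 was lower in 7 of 9 members (29.8% of all genes) and higher in none (27.2%), with Dkc1 3.17-fold lower at 30.5, 27.55 and 32.9 CPM. Gar1 was 2.70-fold lower at 12.0, 11.6 and 11.7 CPM and Nhp2 2.04-fold lower. Against set D1, which held Dkc1 at 27.5, 29.6 and 28.5 CPM and Gar1 at 9.77, 9.57 and 8.415 CPM, untagged KO was higher in 6 of 9 members (38.2% of all genes) and lower in Parn alone (35.5%). Dkc1 was then 1.85-fold higher in KO, Gar1 2.04-fold and Nhp2 1.83-fold. KO of set 519 did not differ detectably from set D1 in Dkc1 (0.06, interval -0.09 to 0.21). It was higher in Nhp2, Wrap53 and Tep1 (3 of 9, 31.1% of all genes) and lower in Naf1 and Parn (2 of 9, 31.2%), and Nhp2 lost its call without replicate 2 of set 519 (0.18, adjusted p = 0.12). Gar1 just missed the threshold (0.34 ± 0.15, adjusted p = 0.053) with no overlapping libraries, and was called higher with RLE scaling (0.049), library totals (0.027), no filter (0.028), the replicate block (0.042), only both groups fitted (0.020) and DESeq2 (0.036). Naf1 was called lower in untagged KO than in set D1 with RLE scaling (adjusted p = 0.025), library totals (0.011), only both groups fitted (0.048) and DESeq2 (0.032), and without replicate 1 of KO (-0.37, adjusted p = 0.012), against 0.054 otherwise. These contrasts share control libraries.

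Both WT sets of 1 month differed from each other as well. Set D1 was lower than untagged WT in 6 of 9 members, where 36.9% of all genes were lower, and higher in none (37.5%), with Gar1 3.41-fold lower (-1.77 ± 0.12), Dkc1 3.31-fold lower (-1.73 ± 0.06), Nhp2 2.54-fold and Wrap53 2.23-fold. Parn (0.03, interval -0.12 to 0.18) and Naf1 (-0.07, interval -0.30 to 0.15) were not called. Set D1 was also the group with the highest osteoclast marker sum, with the lowest cell cycle sum (621 to 668 CPM), and female. Between the KO sets, set 519 was lower in Dkc1, Gar1, Nhp2 and Nop10 at 1 month, 4 of 9 (28.2% of all genes), and higher in none (21.9%), though Parn was called higher without replicate 1 of untagged KO (0.25, adjusted p = 0.043) and with library totals (0.28, adjusted p = 0.013). At 6 months it was lower in Dkc1 (2.04-fold), Gar1, Nhp2 and Wrap53, 4 of 9 (26.5%), and higher in Nop10 (22.6% of all genes; adjusted p = 0.037). The call of Nop10 was lost without replicate 1 or 2 of untagged KO (0.12 and 0.092) or replicate 2 or 4 of set 519 (0.052 and 0.16), with library totals (0.057) and without the filter (0.093), and Naf1 and Parn were called without replicate 3 of untagged KO (0.033 and 0.036). The osteoclast markers were higher and the cell cycle genes lower in set 519 at both ages, in 10 of 10 and 21 of 21 genes, and their part was not tested.

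At 6 months KO of set 519 was lower than WT in 5 of 9 members (25.9% of all genes) and higher in Tep1 (25.7%). Dkc1 stood at 37.0, 42.7 and 37.6 CPM against 92.4, 91.35 and 94.8 CPM, a 2.40-fold difference (-1.26 ± 0.07, adjusted p = 3.1e-17). Gar1, Nhp2 and Parn were lower by 1.67-fold, 1.43-fold and 1.497-fold. Naf1 was lower by 1.34-fold (adjusted p = 0.0090), a call that was lost without replicate 2 (0.061) or 4 (0.066) of set 519. Nop10 was not called (-0.14, adjusted p = 0.22) but passed with library totals (-0.25, adjusted p = 0.017) and with only both groups fitted (-0.14, adjusted p = 0.048). In this contrast the osteoclast markers did not share the direction of untagged KO, with 5 of 10 higher and 2 lower, while 19 of 21 cell cycle genes were lower. Of the stromal markers 9 of 10 were lower and none higher (503.8 to 539 CPM in set 519), and of the macrophage markers 6 of 10 were higher and none lower (19470 to 19720 CPM). Their part in the calls of Tep1 and Parn was not tested.

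Parn (ENSMUSG00000022685, chromosome 16, 13537964-13668170, minus strand), the poly(A)-specific ribonuclease that trims the 3′ end of telomerase RNA, was lower in KO in all 6 contrasts between KO and WT sets, which share groups. Over the 12 KO libraries it ran from 17.1 through a median of 20.8 to 25.4 CPM, and over the 18 WT libraries from 24.75 through 30.2 to 33.7 CPM. Of the KO libraries, 11 lay below the lowest WT library. Across the 6 contrasts, 20.8% to 35.5% of all genes were lower in KO. The shares of all genes lower in all 6, or with such a gap between libraries, were not counted. In the 1-month groups Parn stood at 20.9, 19.2 and 17.1 CPM in KO and at 20.6, 21.7 and 21.3 CPM in KO of set 519. The 1-month WT libraries held 25.5, 24.75 and 25.1 CPM, and set D1 25.5, 25.5 and 25.9 CPM. At 6 months KO had 25.4, 23.0 and 20.3 CPM, KO of set 519 18.5, 23.9 and 20.8 CPM, and WT 31.2, 30.7 and 31.1 CPM.

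The fold differences of Parn were 1.32 at 1 month (-0.40 ± 0.08, adjusted p = 0.00011) and 1.36 at 6 months (-0.44 ± 0.08, adjusted p = 7.5e-06). For set 519 they were 1.18 against 1-month WT (-0.24 ± 0.09, adjusted p = 0.023) and 1.20 against set D1 (-0.27 ± 0.09, adjusted p = 0.011). The former call was lost without replicate 2 of set 519 (0.065), with library totals (0.065) or RLE scaling (0.094), with DESeq2 (0.11) and with only both groups fitted (0.076), and the latter without replicate 3 of set D1 (0.051). Against the macrophage marker sum, Parn had a Pearson correlation of -0.90 over the 10 group means of log2 CPM. Both come from the same libraries, and the part of macrophage RNA in the lower Parn was not tested. A list of 15 genes held deadenylases, other subunits of their complexes and related proteins. Of these, 7 were lower and none higher in 1-month KO, where 20.8% of all genes were lower. They were led by the CCR4-NOT subunits Cnot3 (1.496-fold lower) and Cnot6 (1.44-fold lower). At 6 months 8 were lower, led by Cnot6l (1.75-fold) and Cnot1 (1.38-fold), and 3 higher, led by Noct (1.39-fold) and Cnot9 (1.24-fold), where 29.5% of all genes were lower and 30.5% higher.

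Tep1, which binds telomerase RNA and vault RNA, had the opposite direction. It ran from 179.5 through a median of 205 to 215 CPM in the 12 KO libraries and from 129 through 155 to 192.4 CPM in the 18 WT libraries. These WT libraries include 2-day and 20-month groups without a KO counterpart. The 2-day groups had the lowest means, 132 ± 2.73 and 136.5 ± 3.41 CPM. Untagged 1-month KO and WT overlapped, at 179.5 to 215 CPM and 162 to 192.4 CPM. Higher levels in KO were called in 4 of the 6 contrasts, by 1.28-fold at 6 months (0.36 ± 0.06) and 1.33-fold for set 519 at 6 months, and by 1.33-fold and 1.32-fold against set D1. In each of the 6 contrasts, 20.7% to 38.2% of all genes were higher in KO. Against untagged 1-month WT neither KO set was called, with 0.11 (interval -0.01 to 0.23) and 0.10 (interval -0.02 to 0.22), though the latter passed with RLE scaling (adjusted p = 0.028) and with DESeq2 (0.025). Of the other 2 vault proteins measured, Mvp and Parp4, neither was called in 1-month KO and Parp4 was lower in 6-month KO (1.31-fold). Across group means Tep1 followed Parn inversely (Pearson -0.81) and the summed stromal markers inversely (-0.94), again over 10 means from the same libraries.

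**Figure D4:**
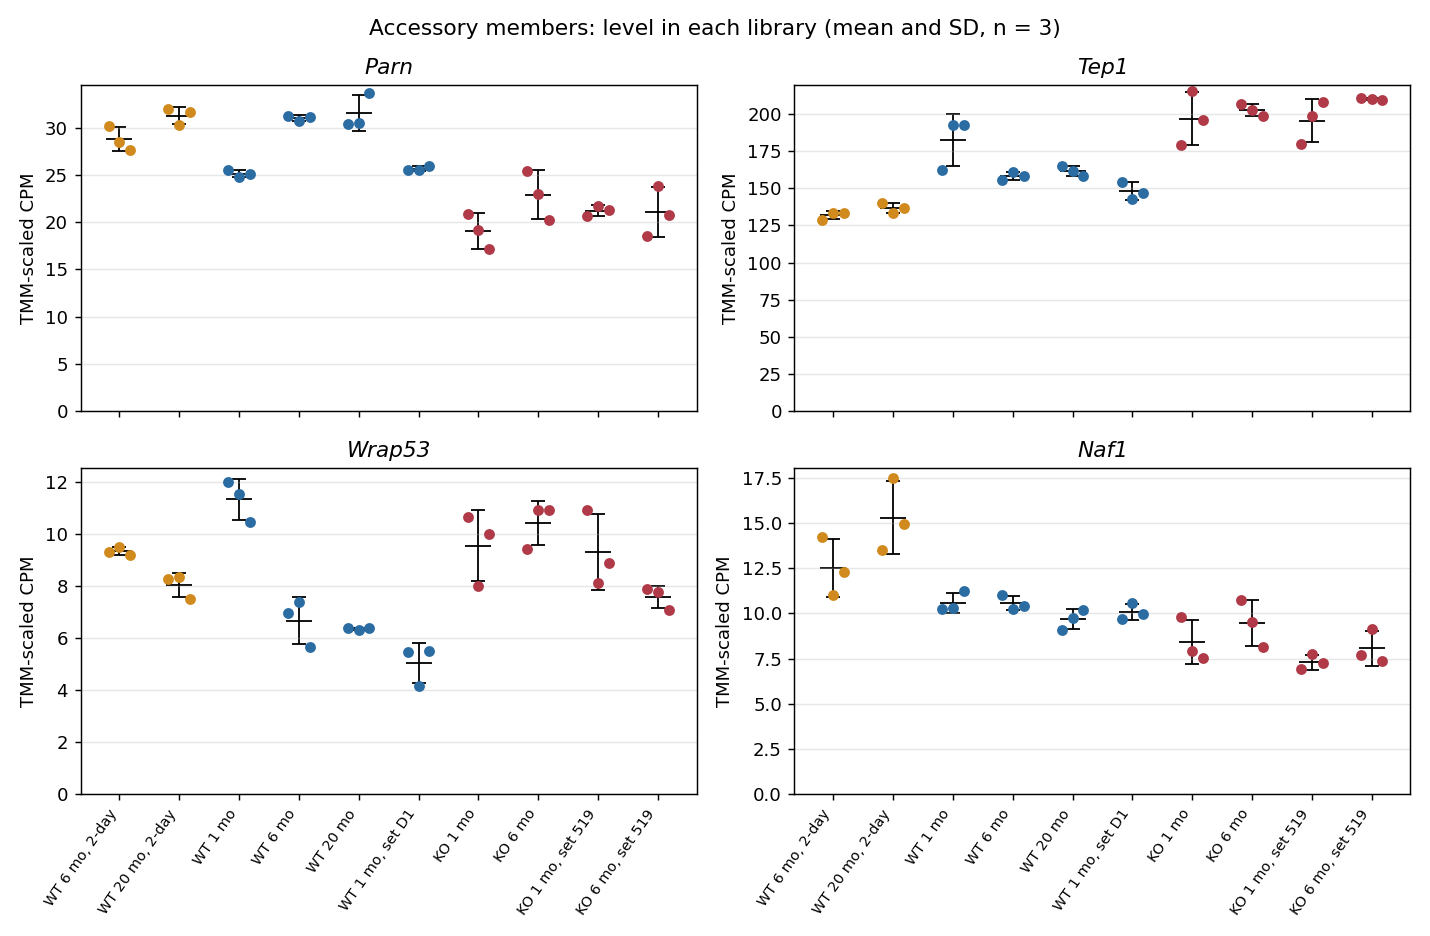
Level of Parn, Tep1, Wrap53 and Naf1 in each library (points) with the mean and SD of the 3 libraries of a group (bars). The vertical axis is TMM-scaled CPM from 0, and colours are as for the core proteins. Of the 12 KO libraries 11 lie below 24.75 CPM in Parn, the lowest WT library, and Wrap53 is lowest in set D1 at 5.03 ± 0.769 CPM.

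Wrap53 did not keep 1 direction between genotypes. It was lower in KO in 1 of the 6 contrasts, set 519 against 1-month WT (1.24-fold, adjusted p = 0.046, with overlapping libraries), higher in 3 and not called in 2. That lower call was lost without replicate 3 (adjusted p = 0.40) or 4 (0.085) of set 519, without replicate 1 (0.11) or 3 (0.11) of WT, with the replicate block (0.059), and under each of 5 other settings. Wrap53 had its highest group means, 11.3 ± 0.800 CPM in 1-month WT and 10.4 ± 0.853 CPM in 6-month KO, where the osteoclast marker sum was low, and a Pearson correlation of -0.84 with that sum over 10 group means. Its gene starts 103 bases from Trp53 on the other strand, and their exons do not overlap. Exons of Dkc1, Nhp2 and Tep1 share 1.09%, 3.84% and 1.76% of their length with the opposite-strand genes Mpp1, Rmnd5b and Gm26782, and no strand option was recorded, so that a small part of their counts may belong to these.

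Over the 10 group means of log2 CPM, Dkc1 and Gar1 had a Pearson correlation of 0.98, Nhp2 and Gar1 0.97, and Dkc1 and Nhp2 0.95. Nop10 had 0.27 with Dkc1 and 0.24 with Gar1. The 5 genes most like Dkc1 by this measure, of 10204 genes with a mean of at least 5 CPM, were the nucleolar protein Ncl (0.992), the adaptor Ywhae (0.992), the RNA-binding proteins Hnrnpa1 (0.992) and Hnrnpa2b1 (0.991), and the nucleolar protein Npm1 (0.991). Gar1 ranked 41 and Nhp2 322 of these, and Nop10 4041. Against the summed level of 21 cell cycle genes the correlation was 0.98 for Gar1, 0.975 for Nhp2, 0.94 for Dkc1 and 0.26 for Nop10. These values describe 10 means that share libraries, and other genes with the same range between groups give like values.

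**Figure D5:**
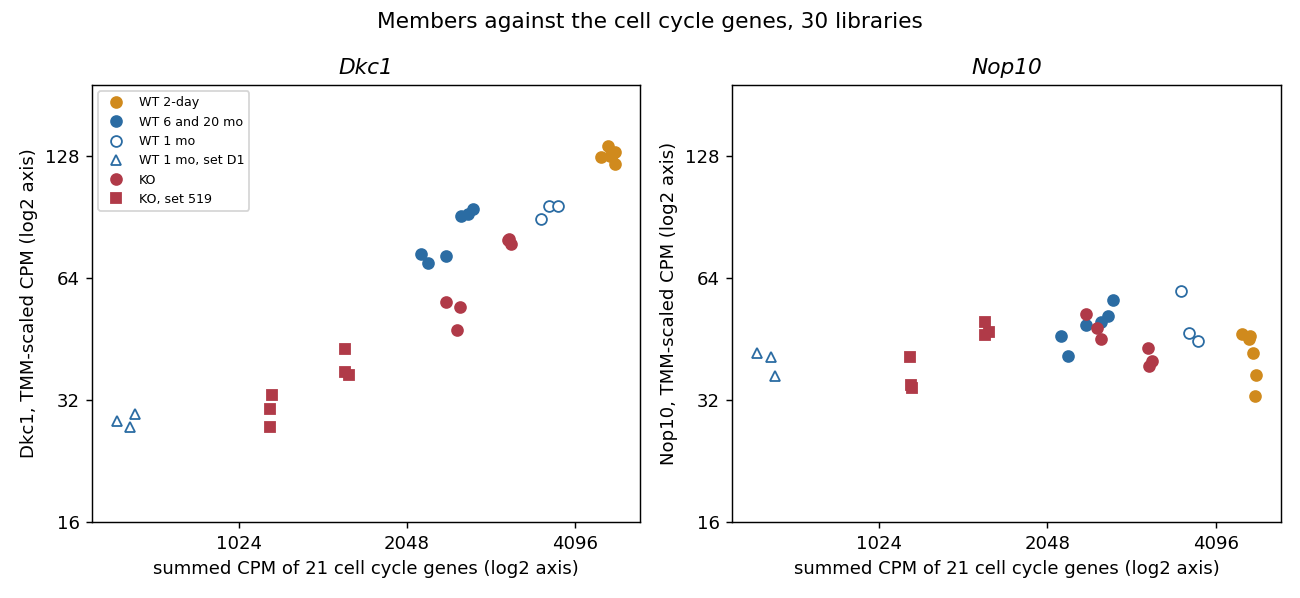
Level of Dkc1 (left) and Nop10 (right) against the summed level of 21 cell cycle genes in each of the 30 libraries, on log2 axes. Members are in TMM-scaled CPM and the sum is in CPM of the library total. Symbols give the culture group as in the legend. Dkc1 goes from 27.5 CPM in set D1 to 135.5 CPM at 2 days along with the sum, and Nop10 stays between 32.7 and 59.5 CPM.

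The genes around the particle were followed by list, with counts beside the median of all genes. The lists were chosen with earlier results of these data known. A count above the share of all genes is therefore a description and no independent support. In 1-month KO against WT, 18 of 19 genes of box C/D particles and nucleolar ribosome production were lower (median log2 fold change -0.42, all genes -0.0012), led by Npm1 (1.598-fold) and Nop58 (1.51-fold). Of 20 factors of telomerase RNA maturation and assembly, 12 were lower and none higher (median -0.22), led by Shq1, the chaperone of free dyskerin (1.49-fold), and Nolc1 (1.45-fold), a nucleolar protein that binds H/ACA and box C/D particles. All 8 subunits of TRiC, the chaperonin that folds Wrap53, were lower (median -0.30). Of 16 shelterin and capping genes 4 were lower, led by Terf1 (1.49-fold) and Rtel1 (1.33-fold), and Tnks was higher (1.23-fold), shares near the 20.8% of all genes called lower and below the 20.7% called higher. In the MYC network, 3 of 10 were lower, led by Mycl (2.59-fold) and Myc (1.58-fold), and 2 higher, Mxd4 (1.25-fold) and Mxi1 (1.20-fold), also near those shares.

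At 6 months the nucleolar, assembly, shelterin and MYC lists were mixed, where 29.5% of all genes were lower and 30.5% higher (median of all genes -0.02). The summed level of the TRiC subunits was 2295 to 2347 CPM of the library total in KO and 2516 to 2600 CPM in WT. With library totals, the median log2 fold change of all genes was -0.10. Of the nucleolar list 5 genes were lower and 4 higher, with Bop1 (log2 fold change 0.64) and Rrp9 (0.59) the most. Of the assembly list 3 were lower, led by the exosome nuclease Dis3 (1.29-fold), and 8 higher, led by Tent4a (1.39-fold), a poly(A) polymerase, and Ruvbl2 (1.35-fold). Of the shelterin and capping genes 7 were higher, led by Ctc1 (1.70-fold) and Acd (1.53-fold), and 4 lower, led by Tnks2 (1.52-fold) and Terf2ip (1.47-fold). The MYC network had 7 of 10 genes higher, led by Mxd3 (3.63-fold) and Mxd1 (1.88-fold), and 3 lower, among them Mxi1 (1.44-fold) and Mga (1.43-fold).

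In the step from 2-day to multinucleated WT, the nucleolar list fell in 17 of 19 genes at 6 months and 19 of 19 at 20 months, with Nop56 and Nop58 2.00-fold lower at 20 months. The assembly list fell in 12 and 16 of 20 genes and all 8 TRiC subunits fell at each age, while both vault genes rose, Mvp 1.43-fold and Parp4 1.42-fold at 6 months. From 6 to 20 months in multinucleated WT, 18 of 19 nucleolar genes fell, led by Nop56 (1.29-fold) and Fbl (1.27-fold), and 7 of 8 TRiC subunits fell. At that step 6.90% of all genes fell and 7.39% rose, and the shelterin list was near this background, with 1 of 16 lower (Pinx1) and 1 higher (Pot1b).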

How the data were processed

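The files deposited by the authors hold 1 count per gene and library, made with featureCounts 1.6.0 on Ensembl 88 gene models, with no strand option, per the file headers. The submitters' processing notes name HTSeq and mm10. Here the counts were fitted with edgeR 4.0.16 (R 4.3.3, limma 3.58.1) by its quasi-likelihood test, after filterByExpr (15310 of 50686 genes kept; Terc removed) and TMM scaling. One fit held all 30 libraries with a coefficient for each of the 10 groups. P-values were adjusted by Benjamini-Hochberg over 15310 genes, with a threshold of 0.05. SE is the log2 fold change divided by the root of F, and intervals are 1.96 SE. On data simulated for KO against WT at 1 month (14593 genes), 91.75% of 2-fold and 76.04% of 1.5-fold changes were recovered. The simulation gave every gene the same spread (coefficient of variation 0.061) and changed few genes. In the real data the largest differences between replicates were in these groups, and many more genes were called. Recovery in the real contrast may therefore be lower.

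Members and gene lists were chosen with earlier results of these data known. Text names all members, up to 2 leading rises and falls of a list, and 5 genes most like Dkc1. Alternatives were RLE scaling, library totals, no filter, DESeq2 1.42.0, only the groups compared, a replicate block and each library left out. The fit without sets 519 and D1 was chosen after seeing the data.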

Additional observations from a re-analysis of the deposited data

Results flagged for a closer look

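These results stand out because the difference between 2 effects was itself called. The KO difference at 6 months minus that at 1 month, in log2, was 0.91 for Gar1, 0.88 for Wrap53, 0.61 for Dkc1, 0.47 for Nhp2, 0.25 for Tep1 and -0.33 for Nop10. The change of Dkc1 from 2-day to multinucleated WT was larger at 20 than at 6 months, by -0.33. The change of Nop10 from 1 to 6 months differed between set 519 and untagged KO by 0.65.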

How the results depend on the processing

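No member result that passed the threshold, before or under an alternative, changed sign. Uncalled differences near 0 did, such as Dkc1 in WT of 6 against 1 month (-0.02, and 0.08 with library totals), and Wrap53 (-0.07 and 0.05) and Tep1 (-0.0098 and 0.11) in set 519 against untagged KO at 1 month. The number of members called moved by over 1.5 times in few comparisons. With library totals only, 3 members (against 5) were called in WT of 6 against 1 month and 4 (against 1) in the difference between KO sets in their change with age. With only the groups compared, 2 (against 1) were called in the difference between ages in the maturation step. Leaving out 1 library gave 0 to 2 calls for 2-day WT of 20 against 6 months, 1 to 2 for the maturation step by age and 1 to 2 for KO age by set. It gave 4 to 7 for KO against WT at 1 month and 5 at 6 months. The criterion for pairing by replicate number required 3 shared numbers. Only set 519 KO against 6-month WT and set 519 KO of 6 against 1 month had these, and neither met it. The other comparisons shared 2 numbers and could not meet it, so pairing was not tested there. Same-number correlations ran from -0.152 to 0.262. With the replicate block, Wrap53 lost its call in set 519 against 1-month WT (adjusted p = 0.059) and in the maturation step at 20 months (0.055), and Gar1 in set 519 against set D1 (0.042) and Nhp2 in set 519 of 6 against 1 month (0.047) gained one. Of the member results without sets 519 and D1, 98 kept their call and 1 gained one. Depth limits Tert and set 519 most, and Terc could not be told from its limit at this depth in RNA selected with oligo(dT).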
